A study of Homo sapiens with 6 samples.

Results

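Glycolysis and the pentose phosphate pathway were described in MDA-MB-231 cells through the mRNAs of 35 genes: the transporters, enzymes and regulators that carry glucose to lactate, the gate to mitochondrial oxidation, and the pentose phosphate branch. Members were taken by gene symbol, using the row with the highest mean FPKM (fragments scaled to transcript length and library size), and all 35 were among the 25706 genes of the table, each in 1 row. Of these, 34 passed the filter on low counts and were tested, of 15951 tested genes; SLC16A1 did not pass. MDA-MB-231 is an established human line of triple-negative breast cancer. Polyadenylated RNA, captured with oligo(dT), was sequenced from 3 samples overexpressing tsRNA-Gly-5-0006, a small RNA whose name derives it from a glycine tRNA, and from 3 control samples. The labels state neither how the small RNA was delivered, nor what the control cells carried, nor whether replicates were separate cultures; p-values then measure only the spread between these samples. The small RNA itself was not measured in these libraries. Values by library are given below in the order of replicates 1, 2 and 3.

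In glycolysis, glucose enters through facilitative transporters, is trapped by phosphorylation, split into triose phosphates and oxidised to pyruvate with a net yield of ATP and NADH. Cancer cells commonly convert much of the pyruvate to lactate and export it even when oxygen is present. The pentose phosphate branch draws on glucose phosphate to make NADPH and ribose phosphate, and its non-oxidative arm returns carbon to glycolysis. Most steps are served by several isozymes that are encoded by separate genes and differ in regulation and tissue of expression.

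Deposited expected counts summed to between 54371226 and 74586916 per library. Markers of the line were mixed. VIM, a mesenchymal intermediate filament, had 365 to 460.0 FPKM, and CDH1, the epithelial cadherin, at most 0.0424 FPKM, whereas the epithelial keratins KRT8 (556 to 656 FPKM), KRT18 (482 to 556 FPKM) and KRT19 (1895 to 2505 FPKM) were abundant. Of the other genes listed for the line, CD44 (34.4 to 49.6 FPKM), AXL (36.4 to 65.4 FPKM) and FOSL1 (143 to 157 FPKM) were expressed. EGFR (0.580 to 0.849 FPKM) and ZEB1 (0.0816 to 0.372 FPKM), also listed for it, were under 1 FPKM. Of the other luminal markers, EPCAM (0.0898 to 0.283 FPKM) and GATA3 (0.527 to 0.909 FPKM) were under 1 FPKM. PGR was at most 0.00345 FPKM, and ESR1 and FOXA1 were not among the measured genes. Overexpression 1 stood apart. Its 11 measured fibroblast markers of 14 listed summed to 131 CPM (counts scaled to library size), against 8.72 to 13.3 in the other 5 libraries, and 0 of them were at 0 in it, against 3 or 4 in each of the others; COL3A1, DCN and FAP were at 0 in all 5 others. Summed leukocyte and endothelial markers were 24.6 to 32.0 CPM in overexpressing and 24.7 to 31.0 in control libraries, nearly all from CD14. Genes in the lowest quintile of transcript GC content were also shifted in overexpression 1, by a median of 0.41 log2 relative to the control mean, against 0.10 and -0.0046 in overexpression 2 and 3. Log2 fold changes are therefore given with and without it where leaving it out turned the sign or moved the value by over 1.5 times, and the part of these shifts in any of them was not tested.

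Expression of the pathway was high and uneven. Of the 35 genes, 12 averaged at least 100 FPKM, 11 between 10 and 100, 7 between 1 and 10, and 5 under 1 FPKM over the 6 libraries. GAPDH ranked 13 by mean FPKM among all 25706 genes, ENO1 16, TPI1 25, ALDOA 58 and PKM 60. The share of all deposited counts taken by the 35 mRNAs together was 5.49% ± 0.0809 in overexpressing libraries and 5.68% ± 0.0935 in control libraries (SD, n = 3 each). By library these shares were 5.40, 5.51 and 5.56% in overexpressing cells and 5.79, 5.63 and 5.63% in control cells, so every overexpression library lay below every control library. As shares of summed FPKM the groups overlapped, at 3.05, 3.15 and 2.995% in overexpressing cells and 3.17, 3.12 and 3.06% in control cells.

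**Figure D1:**
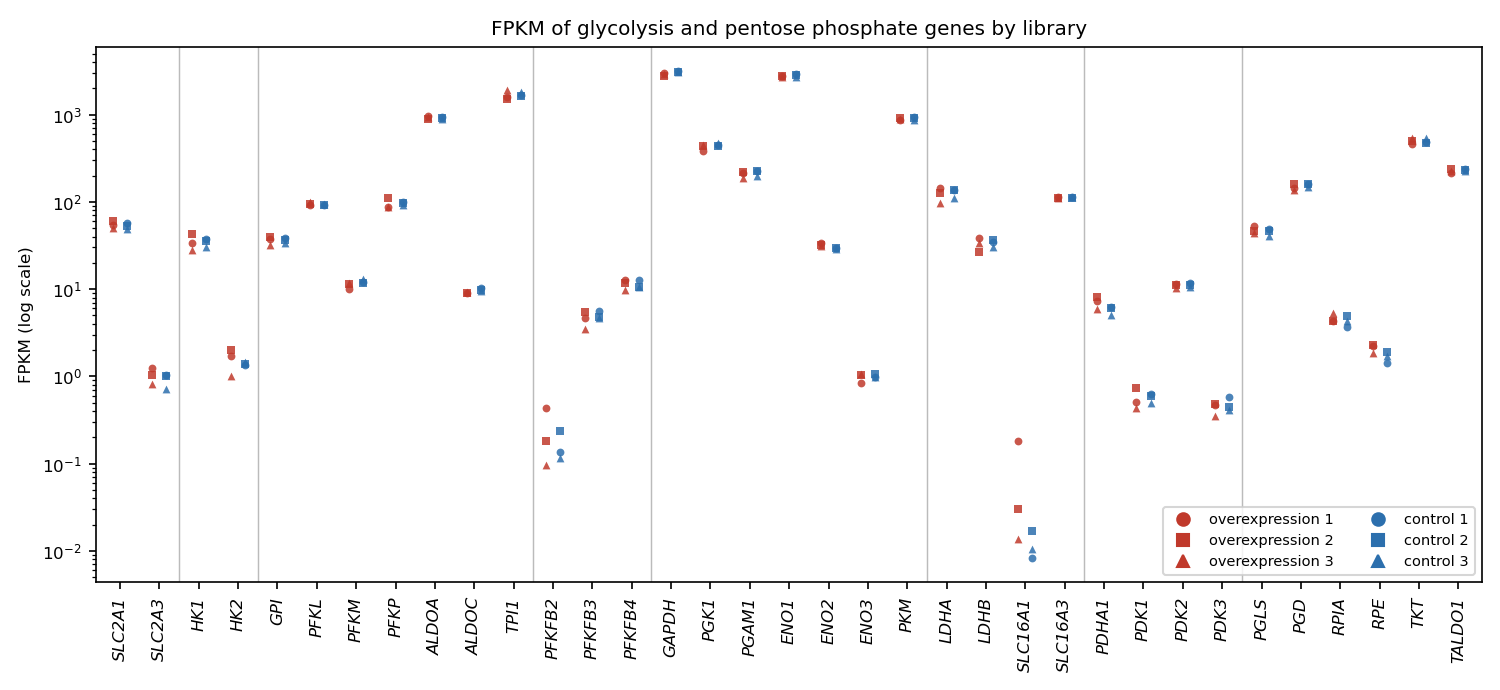
FPKM on a log axis for each of the 35 genes in the 3 overexpression libraries (red, left of each pair) and the 3 control libraries (blue, right), with vertical lines between the functional groups. Replicate libraries nearly coincide for most genes, and PFKFB2 and SLC16A1 stand out by a high value in overexpression 1.

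Transcript abundance followed the order of the pathway only in part. Summed over the isozymes among the 35 genes, the first steps were the lowest: glucose transport had 56.1 ± 5.62 FPKM in overexpressing cells and 53.7 ± 4.12 FPKM in control cells, hexokinase 36.3 ± 7.79 FPKM in overexpressing cells and 36.1 ± 3.79 FPKM in control cells, and glucose phosphate isomerase 36.3 ± 3.54 FPKM in overexpressing cells and 36.4 ± 2.16 FPKM in control cells (SD, n = 3 each, for these and the following steps). These steps bring glucose into the cell and into the pathway. Phosphofructokinase, the main control point, summed to 201 ± 12.3 FPKM in overexpressing cells and 202 ± 1.79 FPKM in control cells. From aldolase to GAPDH the sums were higher at each step. Aldolase had 937 ± 36.5 FPKM in overexpressing cells and 921 ± 34.2 FPKM in control cells, triose phosphate isomerase 1668 ± 226 FPKM in overexpressing cells and 1706 ± 111 FPKM in control cells, and GAPDH 2898 ± 96.4 FPKM in overexpressing cells and 3068 ± 52.6 FPKM in control cells. Phosphoglycerate kinase, at 420.3 ± 36.2 FPKM in overexpressing cells and 455 ± 20.2 FPKM in control cells, and phosphoglycerate mutase, at 207 ± 17.1 FPKM in overexpressing cells and 217 ± 14.9 FPKM in control cells were both lower than GAPDH before them and enolase after them. This left a dip in the middle of the payoff steps. Enolase had 2781 ± 48.4 FPKM in overexpressing cells and 2857 ± 110.1 FPKM in control cells and pyruvate kinase 884 ± 27.2 FPKM in overexpressing cells and 908 ± 39.5 FPKM in control cells. Both act on the late intermediates, and pyruvate kinase yields the final ATP of the pathway. Lactate dehydrogenase summed to 156 ± 25.6 FPKM in overexpressing cells and 162 ± 18.5 FPKM in control cells, and the lactate exporters to 112 ± 0.727 FPKM in overexpressing cells and 113 ± 2.37 FPKM in control cells. The order of neighbouring sums was not kept in every library where they lay close: hexokinase and glucose phosphate isomerase, at the low end, differed by less than their spread, and with HKDC1, a further hexokinase, the hexokinase sum was 46.3 FPKM ± 8.44 in overexpressing cells and 45.3 FPKM ± 3.14 in control cells (SD, n = 3 each), above the isomerase. At the high end, enolase (2801 FPKM) was above GAPDH (2791 FPKM) in overexpression 2. Pyruvate kinase (911 FPKM) was above aldolase (896 FPKM) in the same library. Of the sums over the 35 genes, 5 of the 13 steps held the same rank in all 6 libraries. FPKM are scaled to transcript length, which allows such a comparison between genes, although base composition also moved with the level (given with the isozymes below).

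**Figure D2:**
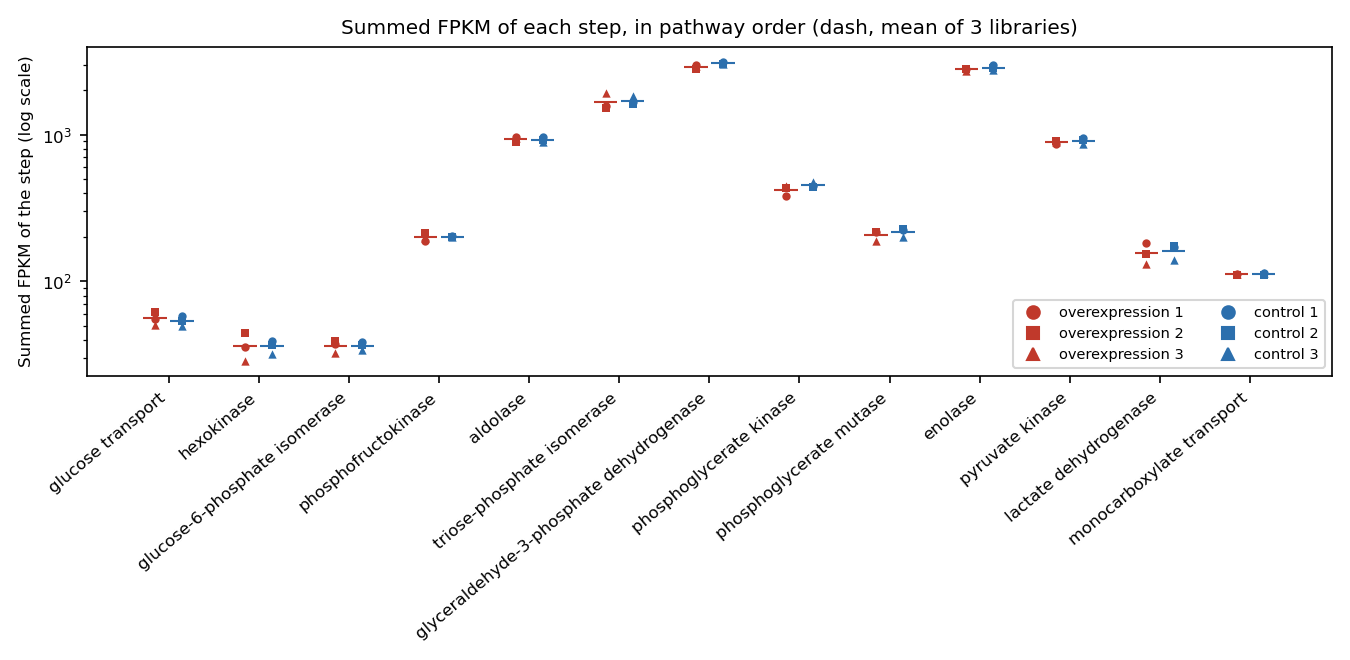
Summed FPKM of the isozymes among the 35 genes for each of 13 steps on a log axis, from glucose transport to lactate export, in overexpression libraries (red, left) and control libraries (blue, right); dashes mark the mean of 3 libraries. Sums range from that of HK1 and HK2, 36.2 FPKM over all libraries without HKDC1, to that of GAPDH, 2983 FPKM, and the groups overlap at every step except GAPDH, where the overexpression libraries are the lower ones.

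No gene of the set passed the test between overexpressing and control cells: most fold changes were close to 1 and the libraries of the groups overlapped for most of them. With edgeR's quasi-likelihood test and Benjamini-Hochberg adjustment over all 15951 tested genes, 0 of 34 members had an adjusted p under 0.05, as did 0% of all tested genes. The smallest adjusted p among members was 0.994, and 0 of 34 reached an unadjusted p under 0.05, a level reached by 3.83% of all tested genes. DESeq2 likewise called 0 of 34 members, against 0.0752% of all tested genes, and 0 of 34 had an unadjusted p under 0.05 there, against 4.18%. Log2 fold changes (overexpression over control) ranged from -0.19 to 0.49, and 25 of 34 were below 0, as were 45.2% of all tested genes. Their median was -0.067, beside 0.023 over all tested genes. Without overexpression 1 the test again called 0 of 34 members, against 0.0247% of genes, and 0 of 34 reached an unadjusted p under 0.05, against 2.89%. There 24 of 34 values were below 0, as were 48.4% of all tested genes, with a median of -0.039 for the members and 0.0073 for all genes. The sign changed for 7 members when that library was left out: SLC2A3, PFKL, PFKFB2, ENO3, PDK1, PGLS and TKT.

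The intervals show what these libraries could resolve. For 30 of 34 members the 95% confidence interval lay within a 1.5-fold change in either direction, as it did for 40.7% of all tested genes. The members outside it were HK2 (-0.42 to 0.61 log2), PFKFB2 (-0.70 to 1.68), PDK3 (-0.63 to 0.24) and RPE (-0.13 to 0.65). Libraries of the groups did not overlap, in TMM-scaled counts, for 5 of 34 members, beside 9.02% of all tested genes; PDHA1 and RPE were higher, and PGAM1, PDK2 and PGD lower, in every overexpression library. In bulk RNA, a lower level per cell and fewer cells with that level cannot be told apart.

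**Figure D3:**
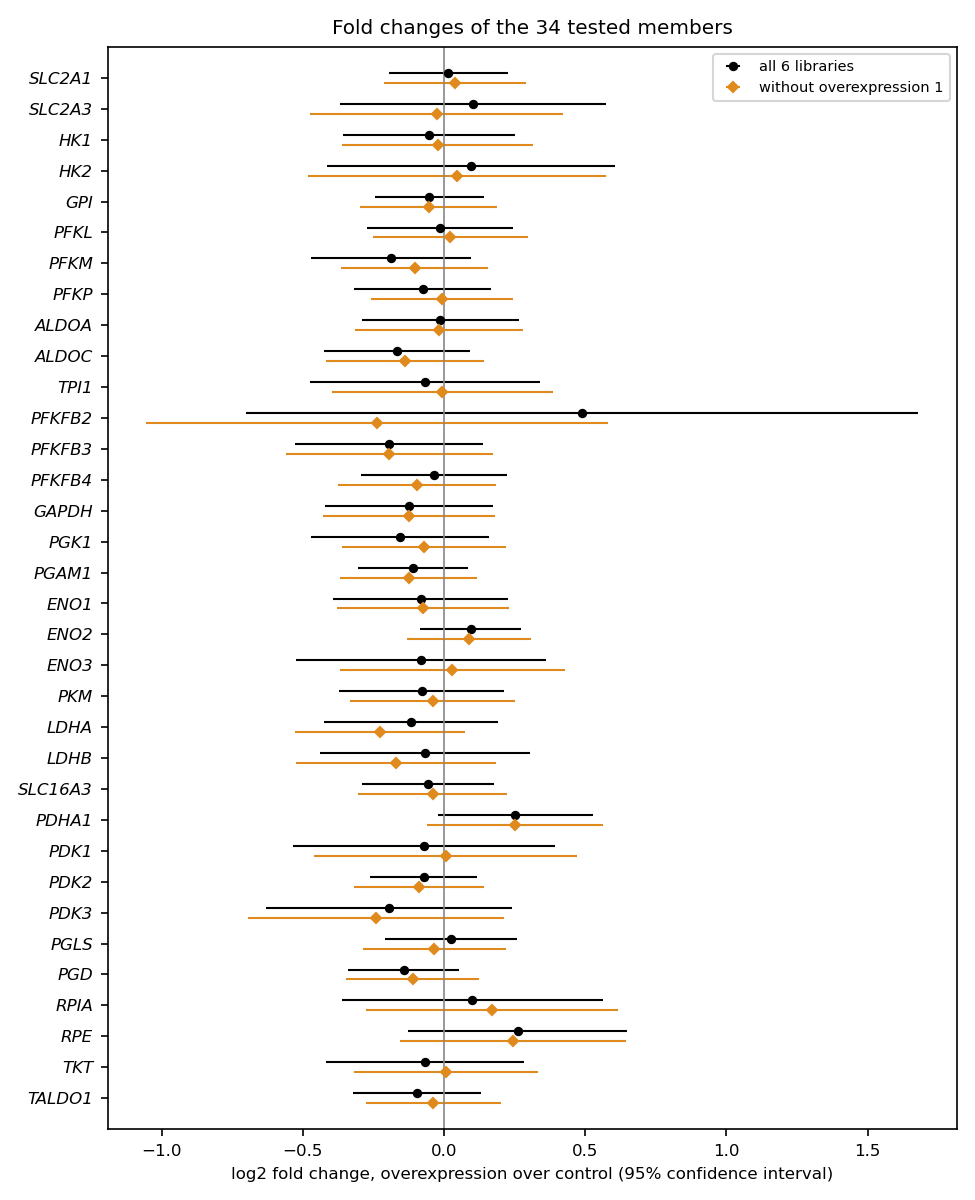
Log2 fold change, overexpression over control, of the 34 tested genes with its 95% confidence interval, from all 6 libraries (black circles) and without overexpression 1 (orange diamonds). Every interval includes 0, and that of PFKFB2 is the widest, from -0.70 to 1.68 with all libraries.

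Of the glucose transporters among the 35 genes, SLC2A1 was the more abundant; it encodes the widely expressed transporter GLUT1 (ENSG00000117394, chromosome 1, 42925353 to 42958868 on hg38). It had 54.4, 60.9 and 49.9 FPKM in overexpressing cells and 56.9, 52.5 and 48.9 FPKM in control cells. The groups overlapped, and the log2 fold change was 0.015 (SE 0.090), or 0.039 without overexpression 1, with a sign that turned under upper-quartile scaling. SLC2A3, encoding the high-affinity transporter GLUT3, had 1.23, 1.05 and 0.808 FPKM in overexpressing cells and 1.05, 1.01 and 0.723 FPKM in control cells; its log2 of 0.10 (SE 0.20) was -0.026 without overexpression 1. SLC2A1 exceeded SLC2A3 by 44.2 to 61.8 times in FPKM in overexpressing cells and by 52.1 to 67.7 times in control cells. That ratio is within the pair only. SLC2A6, a related transporter from the wider list, had 23.5, 21.1 and 19.2 FPKM in overexpressing cells and 24.5, 21.0 and 19.2 FPKM in control cells, and SLC2A1 made up 65.8% ± 2.11 in overexpressing cells and 64.5% ± 0.657 in control cells (SD, n = 3 each) of the summed FPKM of the 7 SLC2A genes in the set and the wider list.

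The most abundant hexokinase was HK1, the isozyme of most tissues (ENSG00000156515, chromosome 10, 69269984 to 69401884). Its levels were 33.9, 42.4 and 27.8 FPKM in overexpressing cells and 37.9, 35.7 and 30.4 FPKM in control cells. The highest and the lowest library were both of overexpressing cells, and the log2 fold change was -0.052 (SE 0.13), or -0.022 without overexpression 1. HK2, the insulin-responsive isozyme that many tumours express at high levels, had 1.70, 1.998 and 1.01 FPKM in overexpressing cells and 1.34, 1.40 and 1.46 FPKM in control cells, with a log2 of 0.10 (SE 0.22), or 0.047 without overexpression 1. Overexpression 1 and 2 were above all controls for HK2 and overexpression 3 was below them. The HK1 share of the summed FPKM of HK1 and HK2 was 95.2%, 95.5% and 96.5% in overexpressing cells and 96.6%, 96.2% and 95.4% in control cells. That share differed by less than the spread between libraries (exact permutation p 0.7, or 0.8 adjusted over the 9 families; 3 against 3 cannot give a p under 0.1). With HKDC1, which was above HK2 in every library, the HK1 share of the 3 was 74.7% ± 2.82 in overexpressing cells and 76.3% ± 3.33 in control cells (SD, n = 3 each).

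At the isomerase step GPI, which interconverts glucose and fructose phosphates (ENSG00000105220, chromosome 19, 34359480 to 34402413), had 37.3, 39.3 and 32.4 FPKM in overexpressing cells and 38.5, 36.6 and 34.2 FPKM in control cells, with a log2 of -0.052 (SE 0.083). Phosphofructokinase was shared almost evenly by the platelet-type and liver-type subunits. PFKP (ENSG00000067057, chromosome 10, 3066333 to 3137718) had 87.2, 109 and 87.4 FPKM in overexpressing cells and 99.99, 96.7 and 93.1 FPKM in control cells, and PFKL (ENSG00000141959, chromosome 21, 44300051 to 44327376) had 92.6, 93.2 and 99.4 FPKM in overexpressing cells and 92.2, 92.4 and 95.5 FPKM in control cells. PFKP was above PFKL in overexpression 2 and in control 1 and 2, and below it in the remaining 3 libraries, so their order did not hold across replicates. Their log2 fold changes were -0.076 (SE 0.10), or -0.0062 without overexpression 1, for PFKP and -0.014 (SE 0.11), or 0.023 without overexpression 1, for PFKL. The muscle-type subunit PFKM was lower, with 9.998, 11.5 and 11.7 FPKM in overexpressing cells and 11.97, 11.7 and 13.02 FPKM in control cells; its log2 of -0.19 (SE 0.12) was -0.10 without overexpression 1, which held its lowest value. The PFKP share of the phosphofructokinase sum was 47.0% ± 3.66 in overexpressing cells and 47.8% ± 1.44 in control cells (SD, n = 3 each) (exact permutation p 0.7, or 0.8 adjusted over the 9 families).

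The PFKFB enzymes set the level of a regulatory fructose bisphosphate, distinct from the product of phosphofructokinase, that activates phosphofructokinase. PFKFB4 was the most abundant of the 3 measured, with 12.6, 11.8 and 9.88 FPKM in overexpressing cells and 12.8, 10.7 and 10.4 FPKM in control cells and a log2 of -0.037 (SE 0.11), or -0.10 without overexpression 1. PFKFB3, the form with the highest kinase over phosphatase activity, had 4.63, 5.45 and 3.53 FPKM in overexpressing cells and 5.56, 4.82 and 4.602 FPKM in control cells; its log2 fold change of -0.19 (SE 0.14, unadjusted p 0.213 by edgeR) was -0.19 without overexpression 1, and the low value was that of overexpression 3. PFKFB2 had the largest log2 fold change of the members, and it rested on overexpression 1. Its levels were 0.433, 0.183 and 0.0970 FPKM in overexpressing cells and 0.135, 0.234 and 0.115 FPKM in control cells, from 349, 122 and 80 counts in overexpressing cells and 84, 161 and 97 counts in control cells. The log2 of 0.49 (SE 0.51) was -0.24 without overexpression 1. YOD1, which overlaps PFKFB2 on the opposite strand, had 548, 58.0 and 76.0 counts in overexpressing cells and 52.0, 84.0 and 98.0 in control cells, highest in the same library, which is also the one with the raised fibroblast markers; the strand used in counting is not stated, so the reads of these overlapping genes cannot be told apart. The PFKFB4 share of the FPKM of the 3 was 70.7% ± 2.85 in overexpressing cells and 68.7% ± 0.715 in control cells (SD, n = 3 each) (exact permutation p 0.4, or 0.8 adjusted over the 9 families).

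ALDOA, the aldolase of muscle and most cells (ENSG00000149925, chromosome 16, 30064164 to 30070414), had 957, 887 and 941 FPKM in overexpressing cells and 948, 903 and 882 FPKM in control cells, and its log2 of -0.014 (SE 0.12) changed sign under several settings. ALDOC, the brain-type aldolase, had 8.94, 9.04 and 9.20 FPKM in overexpressing cells and 10.3, 9.81 and 9.49 FPKM in control cells. Here all overexpression libraries were below all control libraries in FPKM, although the TMM-scaled counts overlapped; the log2 was -0.16 (SE 0.11, unadjusted p 0.177 by edgeR). The ALDOA share of the aldolase sum was 99.07%, 98.99% and 99.03% in overexpressing cells and 98.92%, 98.93% and 98.94% in control cells, and these groups did not overlap (exact permutation p 0.1, or 0.45 adjusted over the 9 families, 0.1 being the smallest that 3 against 3 allows). A row that overlaps ALDOA on the same strand, ENSG00000285043, had 8134 to 13269 counts beside the 214918 to 288685 of ALDOA. TPI1, which interconverts the triose phosphates (ENSG00000111669, chromosome 12, 6867119 to 6870948), had 1570.1, 1508 and 1926 FPKM in overexpressing cells and 1664, 1621 and 1831 FPKM in control cells. Overexpression 3 and control 3 were the highest of their groups, and the log2 was -0.066 (SE 0.17), or -0.0056 without overexpression 1. Its 4 pseudogene rows summed to 1.93% to 2.17% of its counts, so that reads could have been split between them.

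The payoff steps held the most abundant mRNAs. GAPDH, which makes NADH at the triose step (ENSG00000111640, chromosome 12, 6534512 to 6538371), had 2977, 2791 and 2925 FPKM in overexpressing cells and 3128, 3037 and 3037 FPKM in control cells. Each overexpression library was below each control library in FPKM, whereas the TMM-scaled counts overlapped; the log2 was -0.12 (SE 0.13, unadjusted p 0.362 by edgeR), with a 95% interval from -0.42 to 0.17. PGK1, the first ATP-yielding kinase (ENSG00000102144, chromosome X, 77910739 to 78129295), had 379, 436 and 446 FPKM in overexpressing cells and 447, 441 and 478 FPKM in control cells; its log2 of -0.16 (SE 0.13) was -0.070 without overexpression 1, the lowest library. PGAM1, which moves the phosphate within phosphoglycerate (ENSG00000171314, chromosome 10, 97426191 to 97433444), had 216, 218 and 188 FPKM in overexpressing cells and 225, 226 and 199.7 FPKM in control cells, and a log2 of -0.11 (SE 0.083, unadjusted p 0.223 by edgeR). Its FPKM overlapped between groups, while its TMM-scaled counts did not.

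Enolase was supplied by ENO1, the ubiquitous isozyme (ENSG00000074800, chromosome 1, 8861000 to 8878690), with 2782, 2768 and 2694 FPKM in overexpressing cells and 2933, 2833 and 2713 FPKM in control cells and a log2 of -0.083 (SE 0.13). ENO2, the neuronal isozyme (ENSG00000111674, chromosome 12, 6913745 to 6923696), had 33.3, 32.3 and 30.9 FPKM in overexpressing cells and 29.3, 29.3 and 29.1 FPKM in control cells: each overexpression library was above each control library in FPKM, whereas the TMM-scaled counts overlapped. The log2 was 0.095 (SE 0.076, unadjusted p 0.254 by edgeR), positive under all settings tried. ENO3, the muscle isozyme, averaged 0.986 ± 0.122 and 1.01 ± 0.0519 FPKM in overexpressing and control cells (SD, n = 3 each), with a log2 of -0.081 (SE 0.19), or 0.030 without overexpression 1; PFN1, on the opposite strand over part of ENO3, had 143583 to 189880 counts where ENO3 had 251 to 363, so the ENO3 level is uncertain. The ENO1 share of enolase FPKM was lower in every overexpression library, at 98.79%, 98.81% and 98.83% in overexpressing cells and 98.98%, 98.94% and 98.90% in control cells (exact permutation p 0.1, or 0.45 adjusted over the 9 families). The difference amounted to -0.133 percentage points (overexpression minus control). PKM, pyruvate kinase (ENSG00000067225, chromosome 15, 72199029 to 72231680), had 857, 911 and 885 FPKM in overexpressing cells and 945, 912 and 867 FPKM in control cells and a log2 of -0.080 (SE 0.12), or -0.040 without overexpression 1; its M1 and M2 splice forms are summed in 1 row and were not separated.

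The 250 bases upstream of the RefSeq starts of ENO1 and ENO2 (GRCh38.p14) are shown because their enolase shares did not overlap between groups. That difference had an exact permutation p of 0.1, or 0.45 adjusted over the families. Neither gene passed the test, and the part of these sequences in the share was not tested. Capitals mark ACGTG, or its reverse complement CACGT, 1 of the forms of the core of the hypoxia response element bound by HIF factors; the other form, GCGTG or its reverse complement CACGC, is not marked. The windows lie at chr1:8878687-8878936, reverse strand, for ENO1 and at chr12:6914330-6914579, forward strand, for ENO2, with 0 and 1 marked matches. Of the other form, ENO1 held 1 match on the forward and 1 on the reverse strand, and ENO2 held 0.
ENO1: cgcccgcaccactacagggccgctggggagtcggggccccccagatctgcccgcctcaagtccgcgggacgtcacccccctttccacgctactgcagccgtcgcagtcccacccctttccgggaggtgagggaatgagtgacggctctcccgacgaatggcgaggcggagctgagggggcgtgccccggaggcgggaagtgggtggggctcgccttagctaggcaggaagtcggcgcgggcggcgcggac
ENO2: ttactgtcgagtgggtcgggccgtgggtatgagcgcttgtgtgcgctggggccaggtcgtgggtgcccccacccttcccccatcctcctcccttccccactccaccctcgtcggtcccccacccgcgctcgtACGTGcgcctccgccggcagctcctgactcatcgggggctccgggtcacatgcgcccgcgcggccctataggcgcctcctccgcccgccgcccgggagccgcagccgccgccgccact

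Lactate dehydrogenase mRNA was mostly LDHA, whose subunit favours lactate formation (ENSG00000134333, chromosome 11, 18394560 to 18408218). It had 144, 127 and 96.9 FPKM in overexpressing cells and 136, 138 and 110.4 FPKM in control cells. The highest and the lowest library were both of overexpressing cells; the log2 of -0.12 (SE 0.13) was -0.23 without overexpression 1. LDHB, the heart-type subunit (ENSG00000111716, chromosome 12, 21635342 to 21657971), had 38.7, 26.5 and 34.1 FPKM in overexpressing cells and 34.5, 36.6 and 30.3 FPKM in control cells and a log2 of -0.066 (SE 0.16), or -0.17 without overexpression 1. The LDHA share of the LDHA and LDHB sum was 78.8%, 82.8% and 74.0% in overexpressing cells and 79.8%, 79.0% and 78.5% in control cells. Control libraries lay close together, whereas the overexpression libraries lay on both sides of them, and the group means did not differ beyond that spread (exact permutation p 0.8, or 0.8 adjusted over the 9 families).

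The upstream 250 bases of the lactate dehydrogenase genes (GRCh38.p14; LDHA at chr11:18394313-18394562, forward strand; LDHB at chr12:21657843-21658092, reverse strand) are shown because the LDHA share varied most between overexpression libraries, with the same letters in capitals. LDHA held 2 matches on the forward and 3 on the reverse strand in 3 separate stretches, 2 of them the palindrome CACGTG, which reads the same on both strands and is also the letters of an E-box. LDHB held 0, and neither held GCGTG or CACGC. Such windows were found in RefSeq for 32 of the 35 genes, and 10 of these (31.2%) held ACGTG or CACGT, beside 20.8% of 15843 protein-coding promoters of the same length. With either form of the core the shares were 53.1% of these genes (17 of 32) and 50.5% of protein-coding promoters. A match describes the sequence only.
LDHA: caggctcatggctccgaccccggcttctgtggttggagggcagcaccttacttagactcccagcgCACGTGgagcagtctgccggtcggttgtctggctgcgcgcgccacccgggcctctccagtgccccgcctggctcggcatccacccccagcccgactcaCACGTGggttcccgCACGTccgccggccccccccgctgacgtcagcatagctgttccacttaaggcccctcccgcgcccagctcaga
LDHB: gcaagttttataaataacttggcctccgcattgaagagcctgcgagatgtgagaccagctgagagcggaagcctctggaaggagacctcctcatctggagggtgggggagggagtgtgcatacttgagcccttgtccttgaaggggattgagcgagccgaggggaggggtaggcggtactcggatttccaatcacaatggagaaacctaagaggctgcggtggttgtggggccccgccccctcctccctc

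Lactate export was represented by SLC16A3, encoding the monocarboxylate transporter MCT4 (ENSG00000141526, chromosome 17, 82217934 to 82240086). Relative to its mean, its FPKM varied least of the 35 genes over the 6 libraries, at 112, 111 and 112 FPKM in overexpressing cells and 115, 110.1 and 113 FPKM in control cells, with a log2 of -0.055 (SE 0.10). CSNK1D, which overlaps SLC16A3 on the opposite strand, had 8742 to 10858 counts beside the 62733 to 85447 of SLC16A3. SLC16A1, encoding MCT1 (ENSG00000155380, chromosome 1, 112911847 to 112957013), was nearly undetected, with 93, 13 and 7 counts in overexpressing cells and 4, 8 and 6 counts in control cells, or 0.183, 0.0302 and 0.0136 FPKM in overexpressing cells and 0.00827, 0.0170 and 0.0105 FPKM in control cells. It did not pass the filter on low counts, so no fold change is given. The higher value was that of overexpression 1. The antisense row SLC16A1-AS1 had 480 to 852 counts, and without a stated strand the few counts of SLC16A1 are not tied to its own mRNA.

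**Figure D4:**
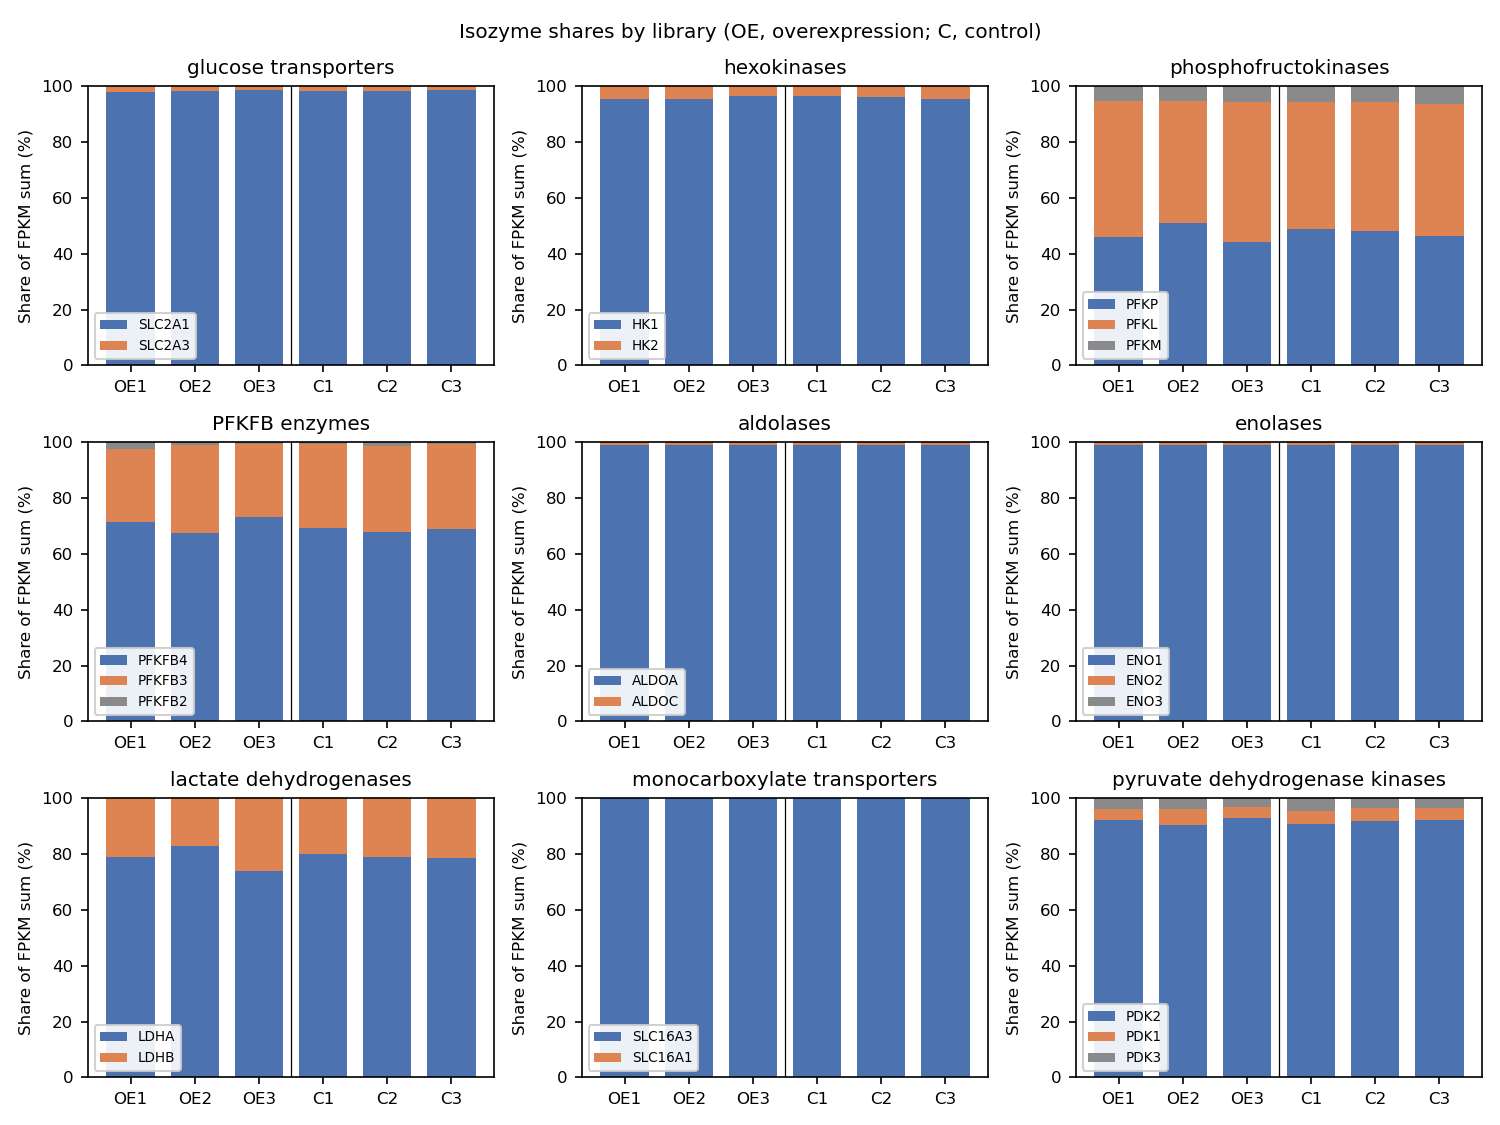
Share of the summed FPKM of each of 9 isozyme families, within the 35 genes, taken by each member, in percent, in overexpression libraries 1 to 3 (OE1 to OE3) and control libraries 1 to 3 (C1 to C3). The leading member takes over 90% in 6 families, whereas PFKP and PFKL split the phosphofructokinase sum and LDHA holds 74.0% to 82.8% of the lactate dehydrogenase sum.

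At the entry to mitochondrial oxidation, PDHA1, the catalytic alpha subunit of pyruvate dehydrogenase (ENSG00000131828, chromosome X, 19343893 to 19361718), had 7.29, 8.15 and 5.98 FPKM in overexpressing cells and 6.25, 6.05 and 5.07 FPKM in control cells. In FPKM the lowest overexpression library was below the highest control library, while in TMM-scaled counts the groups did not overlap. Its log2 of 0.25 (SE 0.12), with an unadjusted p of 0.0668 and an adjusted p of 0.994 by edgeR, had the smallest p of the set; it was 0.25 without overexpression 1 and 0.19 with a GC offset per library. Pyruvate dehydrogenase kinases, which switch the complex off, were dominated by PDK2 (ENSG00000005882, chromosome 17, 50094737 to 50112152), with 11.5, 11.1 and 10.2 FPKM in overexpressing cells and 11.6, 11.2 and 10.6 FPKM in control cells and a log2 of -0.072 (SE 0.081). PDK1, a HIF target in other systems, had 0.509, 0.736 and 0.438 FPKM in overexpressing cells and 0.623, 0.589 and 0.491 FPKM in control cells, and PDK3 had 0.470, 0.476 and 0.354 FPKM in overexpressing cells and 0.582, 0.441 and 0.410 FPKM in control cells. Neither passed the test, with log2 values of -0.070 (SE 0.20), or 0.0067 without overexpression 1, for PDK1 and -0.19 (SE 0.19), or -0.24 without overexpression 1, for PDK3. The PDK2 share of the kinase sum was 91.7% ± 1.37 in overexpressing cells and 91.5% ± 0.777 in control cells (SD, n = 3 each) (exact permutation p 0.8, or 0.8 adjusted over the 9 families).

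Among the pentose phosphate enzymes, those of the non-oxidative arm that rearrange sugars were the most abundant. TKT, transketolase (ENSG00000163931, chromosome 3, 53224712 to 53256022), had 455, 497 and 533 FPKM in overexpressing cells and 490.4, 478 and 544 FPKM in control cells, and its log2 of -0.067 (SE 0.15) was 0.0075 without overexpression 1. TALDO1, transaldolase (ENSG00000177156, chromosome 11, 747415 to 765012), had 211, 239 and 224 FPKM in overexpressing cells and 240.1, 233 and 227 FPKM in control cells and a log2 of -0.10 (SE 0.10), or -0.038 without overexpression 1. Both enzymes return sugar phosphates to glycolysis, and for both the groups overlapped. PGD, phosphogluconate dehydrogenase of the NADPH-making arm (ENSG00000142657, chromosome 1, 10398592 to 10419808), had 143, 159.6 and 135 FPKM in overexpressing cells and 161, 159 and 148 FPKM in control cells. Its TMM-scaled counts did not overlap between groups, being lower in all overexpression libraries, with a log2 of -0.14 (SE 0.084, unadjusted p 0.133 by edgeR). PGLS, the lactonase before it, had 52.7, 45.9 and 44.3 FPKM in overexpressing cells and 49.2, 46.6 and 40.5 FPKM in control cells and a log2 of 0.025 (SE 0.10), or -0.035 without overexpression 1.

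The enzymes that interconvert the pentose phosphates themselves were the lowest of the branch. RPIA, ribose phosphate isomerase, had 4.35, 4.34 and 5.37 FPKM in overexpressing cells and 3.68, 4.86 and 4.28 FPKM in control cells and a log2 of 0.10 (SE 0.20), or 0.17 without overexpression 1. RPE, ribulose phosphate epimerase (ENSG00000197713, chromosome 2, 210002565 to 210022259), had 2.20, 2.26 and 1.85 FPKM in overexpressing cells and 1.43, 1.91 and 1.73 FPKM in control cells. The groups overlapped in FPKM and not in TMM-scaled counts, and the log2 was 0.26 (SE 0.17, unadjusted p 0.158 by edgeR), or 0.24 without overexpression 1. Its transcript has the lowest GC content of the set, 36.6%, and with a GC offset per library its log2 was -0.092. KANSL1L, which overlaps RPE on the opposite strand, had 53 to 101 counts beside the 303 to 614 of RPE.

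Isozyme levels moved with base composition in these libraries. Over all tested genes with a transcript in GENCODE 29, the median of the mean FPKM was 0.410, 0.628, 1.16, 2.82 and 4.91 from the lowest to the highest quintile of GC content. Across the 35 members, GC content and log2 mean FPKM had a Pearson correlation of 0.578 and a Spearman correlation of 0.567. Over 15338 tested genes these were 0.359 and 0.357. The points are genes measured in the same libraries and are not replicates. In 7 of 9 families the most abundant isozyme was also the one with the highest GC content. SLC16A3 stood at 62.7% and SLC16A1 at 43.5%, PDK2 at 59.8% and PDK1 at 39.8%, and HK1 at 53.0% and HK2 at 51.2%. LDHA (44.0%, against 46.5% for LDHB) and PFKP (57.5%, against 63.5% for PFKL) were the exceptions. PGK1 was abundant at a GC content of 43.3%. The part of base composition in the isozyme levels was not tested.

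**Figure D5:**
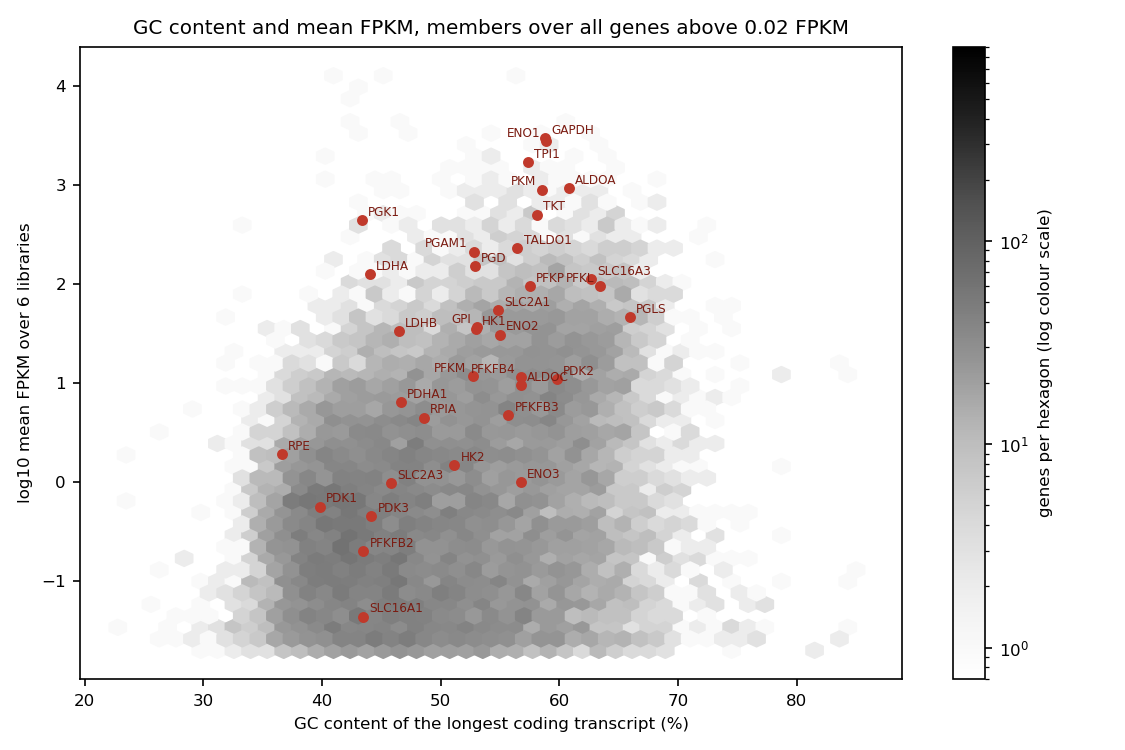
Mean FPKM over 6 libraries (log10) against the GC content of the longest coding transcript, for the 35 members (red, labelled) over all genes with a mean above 0.02 FPKM (grey, darker where more genes fall). Low-level members lie mostly at low GC content, and PGK1 and LDHA lie high at 43.3% and 44.0% GC.

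A wider list of the pathway held no calls either, where edgeR called 0% of all tested genes. Of 46 further genes listed, 38 were in the table and 32 were tested. At an adjusted p under 0.05 with edgeR, 0 were higher and 0 lower. An unadjusted p under 0.05 was reached by 0 of 32 with edgeR, beside 3.83% of all tested genes. With DESeq2 it was reached by 1, beside 4.18%. Log2 values were below 0 for 14 of 32, beside 45.2% of all tested genes, with medians of 0.044 and 0.023. Without overexpression 1 they were below 0 for 20, beside 48.4%, with medians of -0.072 and 0.0073. Those with the smallest p at a mean of at least 1 FPKM were PDP1, PGM1 and SLC2A8. PDP1, a phosphatase that reactivates pyruvate dehydrogenase, had 9.64, 5.15 and 3.68 FPKM in overexpressing cells and 3.14, 4.26 and 3.94 FPKM in control cells, with a log2 of 0.64 (SE 0.31, unadjusted p 0.0748 by edgeR) that was 0.19 without overexpression 1. PGM1, which links glycogen to glucose phosphate, had 39.7, 47.6 and 34.4 FPKM in overexpressing cells and 47.5, 46.7 and 39.6 FPKM in control cells and a log2 of -0.19 (SE 0.11, unadjusted p 0.118 by edgeR). SLC2A8, a glucose transporter of internal membranes, had 5.30, 5.36 and 4.95 FPKM in overexpressing cells and 5.94, 5.78 and 5.40 FPKM in control cells and a log2 of -0.18 (SE 0.10, unadjusted p 0.119 by edgeR).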

How the data were processed

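mRNA was measured in 3 overexpressing and 3 control samples. The submitters' processing notes list edgeR, StringTie 1.3.4d, HISAT2 2.0.4, cutadapt 1.9 and the build hg38; annotation release and strandedness are not given in the sources used here. The deposited expected counts are whole numbers, not scaled between libraries; small counts cluster at 1 and multiples of 4, so they were not taken for tallies of fragments and no counting intervals are given. FPKM were computed by the authors. Library totals, in the report, set the precision. Differences were fitted to the counts by quasi-likelihood in edgeR 4.0.16 under R 4.3.3. Settings were TMM, filterByExpr with a minimum count of 10, group as the only term and 2-sided tests. The adjustment was Benjamini-Hochberg over all tested genes, with a threshold of 0.05. The procedure was also run on counts simulated from its own fitted means and dispersions. These held no GC shift and no deviating library, so that run could not test for such effects. Means and SDs are of deposited FPKM. Isozyme shares were compared by 2-sided exact permutation tests. Alternatives used DESeq2 1.42.0 and limma 3.58.1, other scalings and filters, counts divided by 4, the replicate number as a block and each library left out; the GC offset was chosen after seeing the data. GC content is that of the longest coding transcript in GENCODE 29, available for 96.2% of tested genes. Promoter windows are from RefSeq (GRCh38.p14). Members and lists were chosen with earlier results of these data known. All members are named; per-library values were planned for leading isozymes, members without an isozyme and the 6 smallest p-values, and are given for most others too. Of further pathway genes, the 3 with the smallest p at a mean of at least 1 FPKM are named; genes outside these rules were chosen after their values were seen.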

Additional observations from a re-analysis of the deposited data

How the results depend on the processing

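Members passing the test numbered 0 under every alternative run. The median log2 of the tested members lay between -0.10 and -0.027 over all alternatives (-0.087 to -0.039 with a library left out). Over all tested genes, 0 passed with all 6 libraries, 12 with DESeq2, and 0 to 4 with a library left out (4 without overexpression 1, 2 without overexpression 2). The sign of the log2 fold change held for 18 of 34 members under all alternatives and turned for 16; the cause was not tested. Values of the other sign were -0.019 for SLC2A1, -0.014 for PGLS with upper-quartile scaling; 0.013 for PFKL, 0.014 for ALDOA when genes under a mean of 5 FPKM were dropped; 0.025 for PFKL, 0.011 for PFKFB4, 0.027 for ALDOA with limma on log2(FPKM + 1); 0.025 for PFKL, 0.011 for PFKFB4, 0.027 for ALDOA with limma on log2(FPKM + 0.1); and 0.0037 for ALDOA, -0.092 for RPE with the GC offset. With a library left out, values ran from -0.018 to 0.073 for SLC2A1, -0.030 to 0.20 for SLC2A3, -0.17 to 0.034 for HK1, -0.067 to 0.29 for HK2, -0.11 to 0.041 for PFKL, -0.24 to 0.84 for PFKFB2, -0.10 to 0.064 for PFKFB4, -0.087 to 0.057 for ALDOA, -0.25 to 0.040 for TPI1, -0.20 to 0.030 for ENO3, -0.17 to 0.10 for LDHB, -0.26 to 0.029 for PDK1, -0.035 to 0.090 for PGLS, -0.079 to 0.19 for RPIA, -0.19 to 0.014 for TKT. Without turning the sign, the GC offset moved PDK1 from -0.070 to -0.32, PDK3 from -0.19 to -0.32 and PGK1 from -0.16 to -0.28. It also moved LDHA from -0.12 to -0.25 and PFKFB2 from 0.49 to 0.27. The ALDOA share difference was 0.105 percentage points from FPKM and 0.0718 from expected counts. Other share differences moved by less than the spread between libraries, but some turned sign with a library left out. In percentage points they ran from -0.24 to 0.074 for SLC2A1 and from -2.78 to 0.76 for PFKP. For LDHA they ran from -2.72 to 1.66 and for PDK2 from -0.31 to 1.01. The other families kept the sign. Deviations from the group means correlated at -0.054, 0.019 and 0.14 between same-numbered libraries. Between libraries of unlike number the correlations ran from -0.17 to 0.12. With 3 libraries per group these values cannot decide whether replicates were paired. With the replicate number as a block, 0 genes and 0 members passed and the median of the members was -0.076. Summed fibroblast markers averaged 50.6 CPM in overexpressing libraries, or 10.2 without overexpression 1. PFKFB2, PDK1, PDK3, SLC2A3 and SLC16A1 each averaged under 1 FPKM. Depth limits most the members with the fewest counts: SLC16A1 (4 to 93), PFKFB2 (80 to 349) and ENO3 (251 to 363). PDK1, with a long transcript, had 514 to 702 counts.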

Other observations

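Genes of the wider pathway list, named here after their values were seen, included abundant ones. HKDC1, a hexokinase domain protein outside the HK1 and HK2 pair, had 8.79, 11.1 and 10.1 FPKM in overexpressing cells and 8.85, 8.88 and 10.05 FPKM in control cells, above HK2 in every library. FBP1, the gluconeogenic phosphatase that opposes phosphofructokinase, had 19.3, 21.0 and 18.6 FPKM in overexpressing cells and 21.9, 21.1 and 18.5 FPKM in control cells. BSG, the chaperone that carries MCT transporters to the membrane, had 383, 383 and 362 FPKM in overexpressing cells and 417, 378 and 372 FPKM in control cells, beside abundant SLC16A3 and nearly undetected SLC16A1. None of these passed the test. The log2 was 0.068 (SE 0.13), or 0.17 without overexpression 1, for HKDC1, -0.10 (SE 0.10) for FBP1 and -0.093 (SE 0.10) for BSG.

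Mitochondrial pyruvate handling held genes whose means rested on overexpression 1. MPC1, a subunit of the mitochondrial pyruvate carrier, had 16.8, 6.03 and 5.22 FPKM in overexpressing cells and 5.57, 5.34 and 5.58 FPKM in control cells; its log2 of 0.70 (SE 0.41) was 0.0023 without that library. DLAT, the acetyltransferase of pyruvate dehydrogenase, had 5.92, 2.55 and 1.39 FPKM in overexpressing cells and 2.03, 2.08 and 1.94 FPKM in control cells; its log2 of 0.63 (SE 0.43) was -0.083 without it. Among the tested members, control 1 was the highest library for 14 of 34 in TMM-scaled counts, and their median relative to the control mean was -0.10, -0.10 and 0.0064 log2 in overexpression 1, 2 and 3, and 0.054, -0.038 and -0.023 in control 1, 2 and 3.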
